A study of Mus musculus with 9 samples.

Results

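The transcripts of 9 genes that brain cells use when fatty acids and ketone bodies replace glucose were followed in whole-brain RNA-seq libraries of control and diabetic mice. The genes are Pdk4, Angptl4, Cpt1a, Acadm, Slc16a1, Bdh1, Oxct1, Acat1 and Ucp2, chosen by gene symbol, and each symbol matched 1 row of the 53465 genes in the deposited tables. CON mice were male C57BL/6 mice given saline. DNP mice, the diabetic neuropathic pain group, ate chow with 60% fat during 4 weeks, were then injected daily over 7 days with 50 mg/kg of streptozotocin, which destroys pancreatic beta cells, after a 6 h fast, and later had saline. BAC mice were made diabetic in the same way and were then treated with 8 mg/kg of the GABA-B receptor agonist baclofen on each of 7 days. The mice were male, 7 weeks old at the start, with 3 mice and 3 libraries per group, and diabetes was accepted at a fasting glucose of 16.7 mmol/L or more. Pain thresholds were tested 4 weeks after streptozotocin. Per the paper, only diabetic mice whose mechanical and thermal thresholds had also fallen entered the DNP and BAC groups. Diet and streptozotocin were always combined, so their parts cannot be told apart, and there was no group given baclofen without diabetes.

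Fasting and lack of insulin raise the supply of fatty acids, and the liver turns part of them into ketone bodies, acetoacetate and beta-hydroxybutyrate, which the brain takes up as fuel. Monocarboxylate transporters carry them across the blood-brain barrier and into cells, and the mitochondrial enzymes BDH1, OXCT1 and ACAT1 convert them in turn to acetyl-CoA. PDK4 holds back the entry of pyruvate into the same pathway, CPT1A admits long-chain fatty acids to mitochondria, and PPAR alpha, a nuclear receptor activated by fatty acids, drives many of these genes in liver and muscle. Neurons oxidise few fatty acids, and most brain fatty acid oxidation is assigned to astrocytes.

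The libraries held 13107382 to 16008129 gene counts. Of the 53465 genes, 18501 were kept for testing, all 9 members among them. A test in edgeR across all libraries called 0 genes at an adjusted p of 0.05 in each comparison. Unadjusted p-values in edgeR were under 0.05 for 2067 genes between DNP and CON, 438 between BAC and DNP, 1436 between BAC and CON and 2190 with DNP and BAC pooled against CON. In the same order, DESeq2 called 342, 7, 100 and 364 genes at an adjusted p of 0.05, which is 1.85%, 0.0379%, 0.552% and 2.05% of its genes. No member was called by either tool in any comparison. Markers of brain regions differed between libraries of the same group. The 9 markers of brainstem and spinal cord summed to between 358 and 498 CPM (counts scaled to the library total) in DNP replicate 1, BAC replicate 1 and BAC replicate 3, and to between 0.135 and 28.9 CPM in the other 6 libraries. The 10 cerebellar markers ranged from 62.1 to 6646 CPM, whereas the 8 neuronal markers, at 4329 to 6102 CPM, were high in every library, and the 7 markers of adipose tissue, liver and muscle, of which 1 passed the filter, summed to 2.52 to 11.7 CPM. The CPM of single genes also include TMM, edgeR's correction for library composition. None of the 3 libraries that hold brainstem and spinal cord markers is a control, and values without them are given beside the members' results. The diabetic libraries that then remain were all below CON in cerebellar markers. These summed to 106, 82.0 and 62.1 CPM in DNP replicates 2 and 3 and BAC replicate 2, and to 109 to 6646 CPM in CON. Leaving out those libraries therefore does not even out region content. Fits with the cerebellum and brainstem marker levels as covariates have a limit too. No CON library came near the marked ones in brainstem markers, so that adjustment rests almost wholly on the diabetic libraries. With so few libraries, such values cannot be read as freed of region content.

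Compared per length of transcript (FPKM), Oxct1 had the highest level with a mean of 43.8 FPKM over the 9 libraries (range 20.7 to 58.6), followed by Acat1 at 20.2, Slc16a1 at 10.8, Cpt1a at 8.92, Bdh1 at 8.72, Acadm at 4.89, Pdk4 at 2.69, Ucp2 at 2.60 and Angptl4 at 0.495 FPKM. The enzymes that use ketone bodies and the transporter for them thus stood above Pdk4, Ucp2 and Angptl4. Ranges over the 9 libraries did not overlap between Acat1 and Slc16a1, between Bdh1 and Acadm, or between Ucp2 and Angptl4, and overlapped for the other neighbours in this order. The lengths behind the FPKM were 0.563 (Cpt1a) to 1.674 (Acadm) times the exonic length in the GENCODE vM21 annotation. Dividing mean CPM by the annotated length kept Oxct1 and Acat1 first and Angptl4 last, but put Bdh1 in place 3, Slc16a1 in 4, Acadm in 5, Cpt1a in 6, Ucp2 in 7 and Pdk4 in 8.

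In DNP versus CON, the question was how these genes stand in the brain of diabetic mice. The fitted log2 fold change was above 0 for 9 of 9 members, against 51.4% of all tested genes, with a median of 0.23 against 0.01 over all genes. Only Angptl4 had an unadjusted p under 0.05, where 5.71% of tested genes were higher at that level, and for 2 members, Angptl4 and Acat1, every DNP library lay above every CON library, as it did for 9.59% of tested genes. Adjusted p-values of the members in edgeR ran from 0.377 to 0.995. Without the 3 libraries that hold brainstem and spinal cord markers, 4 of 9 members were above 0, and without DNP replicate 1 alone 5 were. In these bulk libraries, fewer cells of a type and less RNA per cell cannot be told apart.

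Angptl4 (chromosome 17, 33773750 to 33781830 in GRCm38, minus strand) encodes a secreted inhibitor of lipoprotein lipase that fasting and PPAR agonists raise in many tissues. Its counts were 11, 31 and 20 in CON, 58, 57 and 36 in DNP, and 29, 54 and 40 in BAC. All DNP counts exceeded all CON counts, and BAC replicate 1 lay inside the CON range. The mean was 1.45 ± 0.741 CPM for CON, 3.49 ± 0.983 CPM for DNP and 2.78 ± 0.843 CPM for BAC (SD, n = 3 each). The log2 fold change was 1.26 ± 0.44 (SE) in DNP versus CON, with an adjusted p of 0.377 in edgeR and 0.182 in DESeq2, and 1.10 ± 0.40 with DNP and BAC pooled, with an adjusted p of 0.358 in edgeR. It was the largest of the 9 in both. Without the 3 marked libraries the values were 1.10 ± 0.53 and 1.22 ± 0.50, and with the cerebellum and brainstem marker levels as covariates 2.57 ± 0.76 and 2.41 ± 0.74. In BAC versus DNP Angptl4 differed by a log2 fold change of -0.32 ± 0.43, within the spread between mice.

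Pdk4 (chromosome 6, 5483351 to 5496309, minus strand) encodes pyruvate dehydrogenase kinase 4. Its levels were 10.3, 6.56 and 11.3 CPM in CON, 15.4, 8.74 and 8.21 CPM in DNP, and 12.1, 11.4 and 12.4 CPM in BAC. Replicates 2 and 3 of DNP lay within the CON range, while the BAC libraries were close together and all above CON, BAC replicate 2 barely so. In BAC versus CON the log2 fold change was 0.35 ± 0.30 with an adjusted p of 0.790 in edgeR. Pdk4 was the only member whose BAC and CON libraries did not overlap, as for 7.21% of tested genes in that direction. In DNP versus CON it was 0.20 ± 0.30, and -0.16 ± 0.29 without the 3 marked libraries. The related kinases Pdk1 and Pdk2, had log2 fold changes of -0.17 ± 0.29 and -0.32 ± 0.25 in the diabetic groups together.

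**Figure D1:**
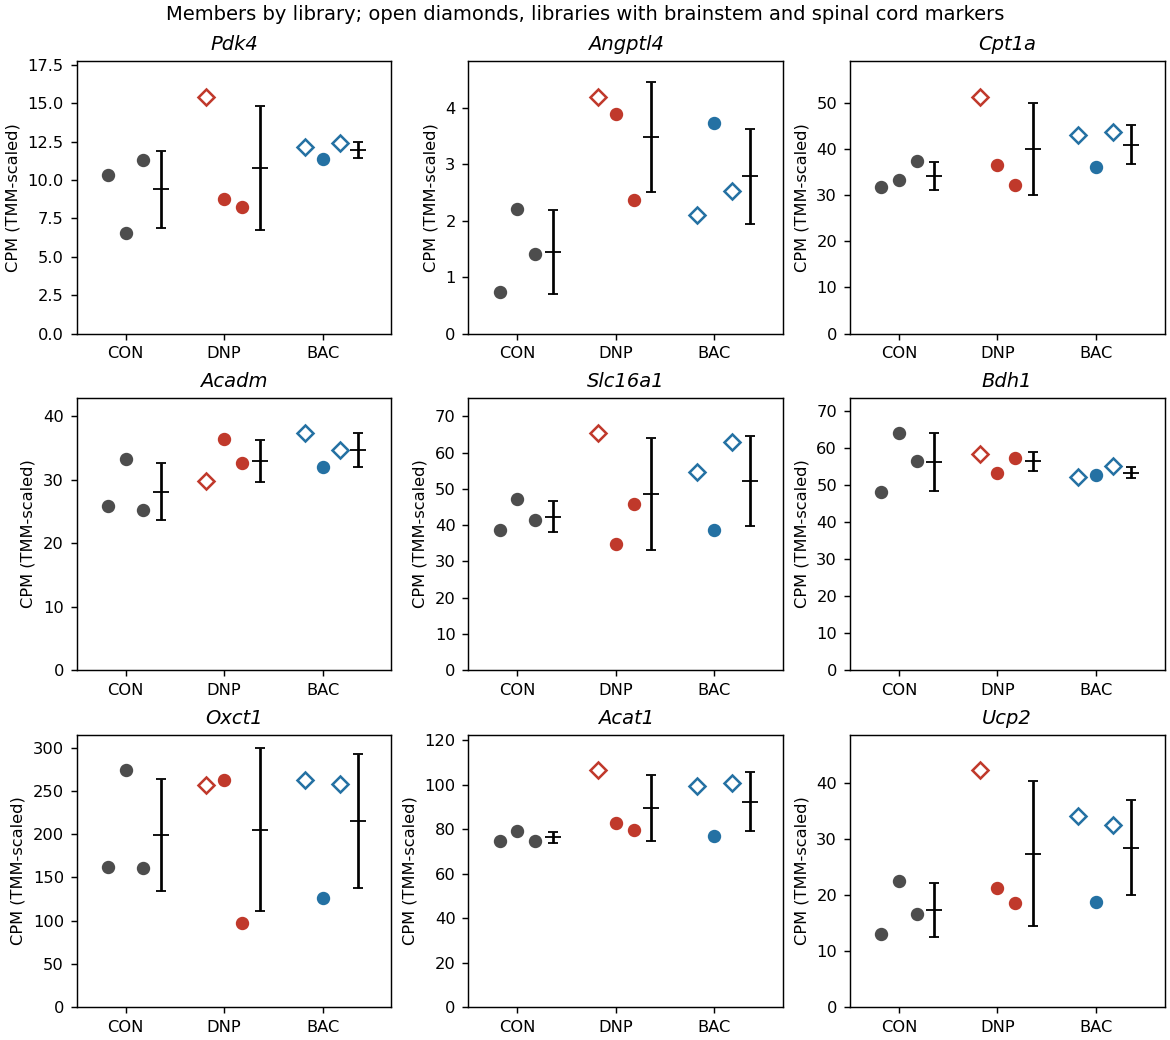
Level of each member in each library on a linear axis from 0 (CPM, TMM-scaled), by group, with the mean and SD of the 3 libraries at the right of each group in black. Open diamonds are DNP replicate 1, BAC replicate 1 and BAC replicate 3, which hold brainstem and spinal cord markers, and they are the 3 highest points for Pdk4, Cpt1a, Slc16a1, Acat1 and Ucp2, whereas for Angptl4 the filled DNP and BAC points also lie above all CON points.

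Cpt1a (chromosome 19, 3322334 to 3385733, plus strand) encodes the liver-type carnitine palmitoyltransferase, the entry step for long-chain fatty acids. It measured 31.6, 33.2 and 37.4 CPM in CON, 51.3, 36.4 and 32.2 CPM in DNP, and 42.9, 36.1 and 43.6 CPM in BAC. The other 3 diabetic libraries lay within the CON range. The log2 fold change in DNP versus CON was 0.23 ± 0.19 (edgeR adjusted p = 0.692) with all libraries and -0.00 ± 0.15 without the marked ones. Acadm (chromosome 3, 153922357 to 153944632, minus strand), the dehydrogenase for medium-chain fatty acids, measured 25.9, 33.4 and 25.2 CPM in CON, 29.8, 36.5 and 32.6 CPM in DNP, and 37.3, 32.1 and 34.7 CPM in BAC. The log2 fold change in DNP versus CON was 0.23 ± 0.16 (edgeR adjusted p = 0.614) with all libraries, 0.28 ± 0.19 without the marked ones and 0.56 ± 0.24 with the region marker levels as covariates. CON replicate 2 overlapped the diabetic libraries, and with both diabetic groups pooled the value was 0.27 ± 0.14 (edgeR adjusted p = 0.483), and 0.59 ± 0.23 with the covariates.

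Slc16a1 (chromosome 3, 104638668 to 104658462, plus strand) encodes MCT1, the monocarboxylate transporter of brain endothelium and glia. Levels were 38.7, 47.2 and 41.3 CPM in CON, 65.3, 34.9 and 45.8 CPM in DNP, and 54.6, 38.7 and 63.0 CPM in BAC. The marked libraries were the 3 highest, and DNP replicate 2 was the lowest of all 9. The log2 fold change in DNP versus CON was 0.20 ± 0.26 (edgeR adjusted p = 0.823), and -0.08 ± 0.19 without the marked libraries.

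The ketone-using enzymes differed from each other in pattern. Bdh1 (chromosome 16, 31422280 to 31458901, plus strand), which interconverts beta-hydroxybutyrate and acetoacetate, was the steadiest member, at 56.3 ± 7.86 CPM for CON, 56.4 ± 2.67 CPM for DNP and 53.4 ± 1.52 CPM for BAC (SD, n = 3 each). DNP differed from CON by a log2 fold change of 0.00 ± 0.13 and BAC from DNP by -0.08 ± 0.13, and the sign of the former depended on the normalization. Oxct1 (chromosome 15, 4026383 to 4155344, plus strand), the transferase that commits acetoacetate to oxidation, measured 162, 274 and 161 CPM in CON, 257, 263 and 96.9 CPM in DNP, and 263, 126 and 258 CPM in BAC. In 5 libraries, with at least 1 from each group, it was at 257 to 274 CPM and in the other 4, also from all groups, at 96.9 to 162 CPM. Group means differed by less than this spread, with a log2 fold change of 0.05 ± 0.43 between DNP and CON and 0.07 ± 0.43 between BAC and DNP. Acat1 (chromosome 9, 53580522 to 53610382, minus strand), the mitochondrial thiolase, measured 74.9, 79.3 and 74.8 CPM in CON, 107, 82.7 and 79.7 CPM in DNP, and 99.2, 77.1 and 101 CPM in BAC. The DNP libraries all lay above CON, though DNP replicate 3 barely exceeded CON replicate 2, and BAC replicate 2 lay within CON. The log2 fold change in DNP versus CON was 0.23 ± 0.16 (edgeR adjusted p = 0.622) and 0.08 ± 0.12 without the marked libraries.

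Ucp2 (chromosome 7, 100493337 to 100502020, plus strand) encodes a mitochondrial inner-membrane carrier that accompanies fatty acid use and is rich in microglia. Levels were 12.9, 22.5 and 16.5 CPM in CON, 42.2, 21.2 and 18.6 CPM in DNP, and 34.1, 18.6 and 32.5 CPM in BAC. The 8 microglial markers summed to 254 to 288 CPM in the marked libraries and to 159 to 376 CPM in the others. For Ucp2 the marked libraries, at 32.5 to 42.2 CPM, stood apart from the other diabetic libraries at 18.6 to 21.2 CPM, which lay inside the CON range. After Angptl4 this was the largest fitted difference among the members, with a log2 fold change of 0.66 ± 0.37 in DNP versus CON (edgeR adjusted p = 0.541) and 0.69 ± 0.33 in the pooled comparison (adjusted p = 0.461 in edgeR). It was 0.19 ± 0.27 in DNP versus CON without the marked libraries, 0.20 ± 0.32 without DNP replicate 1 alone, and 0.95 ± 0.28 with the region marker levels as covariates, where edgeR's adjusted p was 0.337.

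For 5 of 9 members (Pdk4, Cpt1a, Acat1, Slc16a1 and Ucp2), the 3 marked libraries were above all 6 others, as for 9.1% of the 18501 tested genes. Since these 3 libraries were all diabetic, their levels entered both group means. Other marker lists ran with them, upward or downward. The forebrain markers summed to 122 to 161 CPM in the marked libraries and to 260 to 1085 CPM in the others. Endothelial markers were at 177 to 200 CPM against 207 to 297 CPM, and mural cell markers at 146 to 174 CPM against 180 to 247 CPM. The 8 oligodendrocyte markers summed to 7490 to 9977 CPM in the marked libraries, to 2237 to 3034 CPM in CON and to 3046, 3878 and 7376 CPM in the remaining diabetic libraries. The 8 astrocyte markers summed to 4164 to 4692 CPM in CON, 3189 to 4415 CPM in DNP and 4559 to 4934 CPM in BAC. Of these 8, 2 had fitted values above 0 and 6 below 0 in DNP versus CON, with a median of -0.25. In BAC versus DNP all 8 were above 0, with a median of 0.45. The part of these cell and region differences in the members' levels was not tested. The 5 erythroid markers, in contrast, were above CON in every diabetic library, at 464 to 755 CPM against 190 to 205 CPM.

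**Figure D2:**
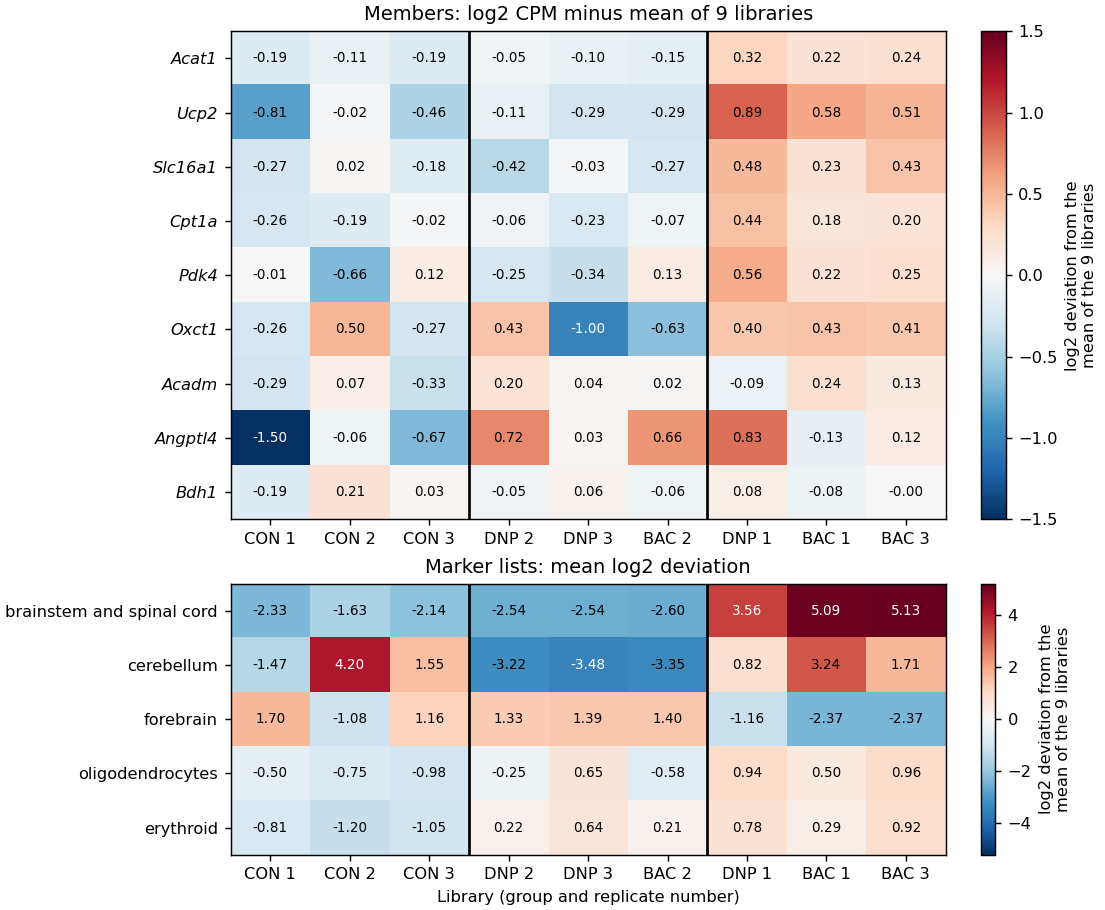
Log2 deviation of each library from the mean of the 9 libraries, for the members (upper panel, log2 CPM) and for the mean over 5 marker lists (lower panel), with the number printed in each cell and separate colour scales. Columns are the CON libraries, the diabetic libraries without brainstem and spinal cord markers, and the 3 with them, at 3.56, 5.09 and 5.13 for that list, where Acat1, Ucp2, Slc16a1, Cpt1a and Pdk4 are also highest, while Angptl4, Acadm and Bdh1 do not follow this order.

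The start regions of the members that peaked in the same libraries are shown as sequence context for this shared pattern, from 150 to 51 bases before the RefSeq start (GRCm38.p6), 5′ to 3′ on the strand of the gene. Promoter windows from 250 bases before to 50 bases after the start were found for 7 of the 9 members, not for Acat1 and Angptl4. Capitals mark matches on either strand to a CCAAT box (CCAAT), a GC box (GGGCGG) or a nuclear receptor half-site (AGGTCA).
Pdk4 (chr6:5496329-5496428, minus strand): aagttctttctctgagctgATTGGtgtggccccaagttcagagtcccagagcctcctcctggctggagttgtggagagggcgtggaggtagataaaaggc
Cpt1a (chr19:3323151-3323250, plus strand): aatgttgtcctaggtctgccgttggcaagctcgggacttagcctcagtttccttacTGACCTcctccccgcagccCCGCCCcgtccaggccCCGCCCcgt
Slc16a1 (chr3:104638514-104638613, plus strand): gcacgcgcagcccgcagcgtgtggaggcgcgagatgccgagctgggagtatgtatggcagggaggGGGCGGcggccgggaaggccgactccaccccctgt
Ucp2 (chr7:100493208-100493307, plus strand): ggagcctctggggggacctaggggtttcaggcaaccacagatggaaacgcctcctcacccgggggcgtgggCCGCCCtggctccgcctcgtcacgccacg

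In these windows Cpt1a alone held the half-site, at -94 to -89, and Acadm held it at -249. The half-site occurs in 16.3% of the 32851 mouse promoter windows of this length, the GC box in 35.7% and the CCAAT box in 37.4%. The DR1 element, a direct repeat of the half-site with 1 base between and the form PPARs bind, was found in none of the members' windows and in 0.0396% of all, and the glucocorticoid receptor core (ACANNNTGT; 6.85% of all) and the FOXO site (GTAAACA; 3.65% of all) in none of the members' windows. No motif was shared by all 4 promoters shown.

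In BAC versus DNP, the question was whether baclofen shifted these genes. Fitted values were above 0 for 7 members and below 0 for Angptl4 and Bdh1, where 48.1% of all tested genes were above 0. The median was 0.06, the range -0.32 to 0.15, and no member had an unadjusted p under 0.05, at which 2.37% of tested genes stood in either direction. No member's DNP and BAC libraries separated, against 6.79% of tested genes. Marked libraries were 1 of 3 in DNP and 2 of 3 in BAC. Without them, with BAC replicate 2 alone in its group, 3 of 9 members were above 0, and without DNP replicate 3 alone 2 of 9. In BAC versus CON 8 of 9 members were above 0 (48.2% of tested genes), with a median of 0.30, and none had an unadjusted p under 0.05, where 7.76% of tested genes stood. These comparisons share the DNP or the CON libraries with DNP versus CON. With both diabetic groups against CON, 8 of 9 members were above 0 (48.6% of tested genes) and 1, Angptl4, had an unadjusted p under 0.05 (6.42% of tested genes were higher at that level).

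**Figure D3:**
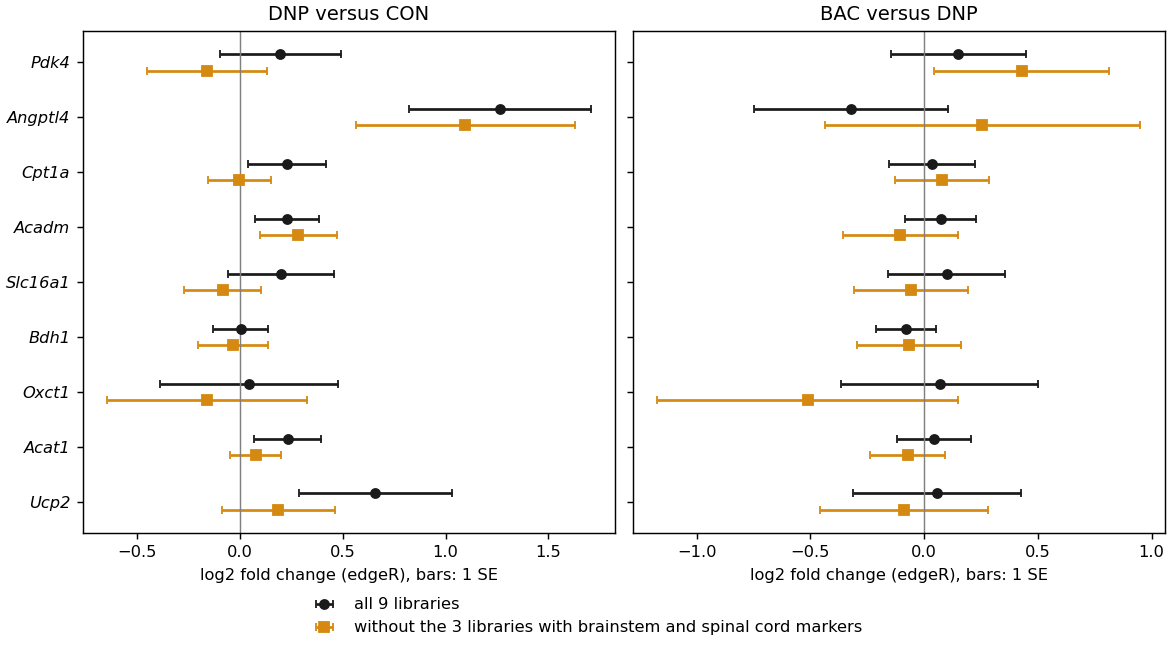
Log2 fold change of each member in edgeR (points, bars are 1 SE) in DNP versus CON (left) and BAC versus DNP (right), with all 9 libraries (black circles) and without the 3 libraries that hold brainstem and spinal cord markers (orange squares). In DNP versus CON the orange values of Cpt1a, Slc16a1, Pdk4, Oxct1 and Bdh1 lie at or below 0, and Angptl4 remains farthest from 0 at 1.26 and 1.10.

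The wider pathways were read from lists of genes that are not members. A list of 34 tested genes covered fatty acid oxidation and its control. It includes the acetyl-CoA carboxylases Acaca and Acacb, which are not oxidation enzymes, and the CPT1 form Cpt1c. In the pooled diabetic groups, 6 of the 34 had an unadjusted p under 0.05 in edgeR with higher levels and 0 with lower levels. Over all tested genes, 6.42% were higher and 5.42% lower. The median log2 fold change was 0.17 against -0.01 over all genes, and 23 of the 34 were above 0. Without the marked libraries the median was -0.002 and 17 of the 34 were above 0. With the region marker levels as covariates the median was 0.23 and 25 were above 0. Among the 6 higher genes with all libraries were Etfb, the thiolase Acaa2 and the isomerase Eci2. Etfb encodes the beta subunit of the flavoprotein that passes electrons from acyl-CoA dehydrogenases. Their log2 fold changes were 0.45 ± 0.14, 0.51 ± 0.17 and 0.43 ± 0.14, with adjusted p-values of 0.335, 0.345 and 0.345 in edgeR. Every diabetic library lay above every CON library for 5 of the 34 genes, these 3 among them, against 3.82% of tested genes. The 3 were named for the smallest p of the list in this same comparison, so their separation adds no support. Without the marked libraries the values of Etfb, Acaa2 and Eci2 were 0.40, 0.57 and 0.27. With the region marker levels as covariates they were 0.26, 0.21 and 0.46. On the other hand, 13 of the 34 genes, Cpt2, Hadha, Hadhb and Eci2 among them, were highest in exactly the 3 marked libraries (9.1% of all tested genes). Cpt2, the inner-membrane partner of CPT1, was at 13.3, 11.8 and 12.0 CPM there and at 4.25 to 7.91 CPM elsewhere, and its pooled log2 fold change of 0.65 ± 0.38 became -0.01 without them. Hadha, of the trifunctional protein, went from 0.15 ± 0.18 to -0.14.

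Of 12 tested genes for ketone synthesis, transport and use, 1 was higher and 2 were lower at an unadjusted p under 0.05 in the pooled diabetic groups, against 6.42% and 5.42% of all tested genes. The lower ones were Aacs, the cytosolic enzyme that turns acetoacetate to lipid synthesis, and Slc16a7, which encodes MCT2, the high-affinity monocarboxylate transporter of neurons. Aacs stood at 51.3 to 68.1 CPM in CON and at 40.7 to 48.0 CPM in the diabetic libraries, with no overlap and a log2 fold change of -0.43 ± 0.12 (adjusted p 0.310 in edgeR, 0.0440 in DESeq2), which was -0.67 with the region covariates. Slc16a7 differed from Slc16a1 in its pattern. It measured 52.7, 21.5 and 13.8 CPM in CON, 10.6, 34.2 and 33.6 CPM in DNP, and 5.01, 6.35 and 6.55 CPM in BAC. Every BAC library was below every other library, with or without brainstem markers. The log2 fold change in BAC versus DNP was -2.13 ± 0.58 (adjusted p 0.998 in edgeR, 0.215 in DESeq2). It was -2.41 without the marked libraries, where BAC replicate 2 was alone in its group, and -1.57 ± 0.56 with the region covariates. At an unadjusted p under 0.05, 1 of 12 genes of this list was lower in BAC versus DNP, where 1.00% of tested genes were. The higher one, Bdh2, had 12 to 18 counts in CON and 15 to 69 in the diabetic libraries, with the 3 largest counts in the marked libraries. Its pooled log2 fold change was 1.12 ± 0.45, and 0.38 ± 0.39 without those libraries or 0.13 with the region covariates.

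DNP versus CON gave 3 higher and 2 lower genes at an unadjusted p under 0.05 among the 27 tested genes of the fasting and PPAR response, and BAC versus DNP 2 higher and 2 lower. Over all tested genes these shares were 5.71% and 5.46% in the first comparison and 1.37% and 1.00% in the other. Plin4, a lipid droplet coat protein, had 64, 67 and 64 counts in CON, 534, 124 and 293 in DNP, and 165, 198 and 177 in BAC. Every diabetic library was above CON, and the log2 fold change in DNP versus CON was 2.29 ± 0.47 (adjusted p 0.294 in edgeR, 0.00114 in DESeq2). It was 1.61 without the marked libraries. Foxo3, a fasting-response transcription factor that insulin signalling restrains, had a pooled log2 fold change of -0.79 ± 0.20 (adjusted p 0.304 in edgeR, 0.0352 in DESeq2), and Ppargc1b, a coactivator of mitochondrial genes, one of -0.81 ± 0.32 (adjusted p 0.386 in edgeR). Without the marked libraries Ppargc1b was at -1.39 ± 0.28, and with the region covariates at -0.54. By group it was at -1.26 ± 0.39 between DNP and CON and 0.90 ± 0.39 between BAC and DNP (edgeR adjusted p = 0.998). The pooled value of Foxo3 was -0.89 without the marked libraries and -0.08 with the region marker levels as covariates. DNP and BAC libraries did not overlap in 4 of the 27 genes of this list, against 6.79% of all tested genes. The BAC libraries lay above those of DNP for Foxo3 and Ppara and under them for Txnip and Acot1. Txnip and Acot1 were chosen after their values were seen, and Ppara by the rule for named genes. Txnip, a glucose-induced arrestin that limits glucose uptake, measured 18.7, 19.5 and 18.1 CPM in CON, 29.4, 31.4 and 24.4 CPM in DNP, and 19.4, 17.9 and 16.8 CPM in BAC. The DNP libraries were above all others, and the log2 fold change was 0.60 ± 0.15 in DNP versus CON (adjusted p 0.294 in edgeR, 0.0354 in DESeq2) and -0.65 ± 0.15 in BAC versus DNP (adjusted p 0.998 in edgeR, 0.145 in DESeq2).

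Acot1, a cytosolic acyl-CoA thioesterase under PPAR control in liver, ran the same way, at 8.60 ± 2.03 CPM for CON, 14.4 ± 0.694 CPM for DNP and 8.40 ± 0.554 CPM for BAC (SD, n = 3 each). The log2 fold changes for the same comparisons were 0.75 ± 0.20 (adjusted p 0.313 in edgeR, 0.0480 in DESeq2) and -0.78 ± 0.20 (adjusted p 0.998 in edgeR, 0.327 in DESeq2). Without the marked libraries the values were 0.56 and -0.64 for Txnip and 0.73 and -0.80 for Acot1. With the region covariates DNP versus CON gave 0.69 for Txnip and 0.46 ± 0.36 for Acot1. Ppara, which encodes PPAR alpha itself, lay in the other direction, with 46, 19 and 36 counts in CON, 19, 24 and 13 in DNP, and 57, 50 and 37 in BAC. The BAC counts were above the DNP counts, with a log2 fold change of 1.35 ± 0.40 (edgeR adjusted p = 0.998). The DNP libraries take part in both comparisons, so the 2 directions are not independent of each other.

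**Figure D4:**
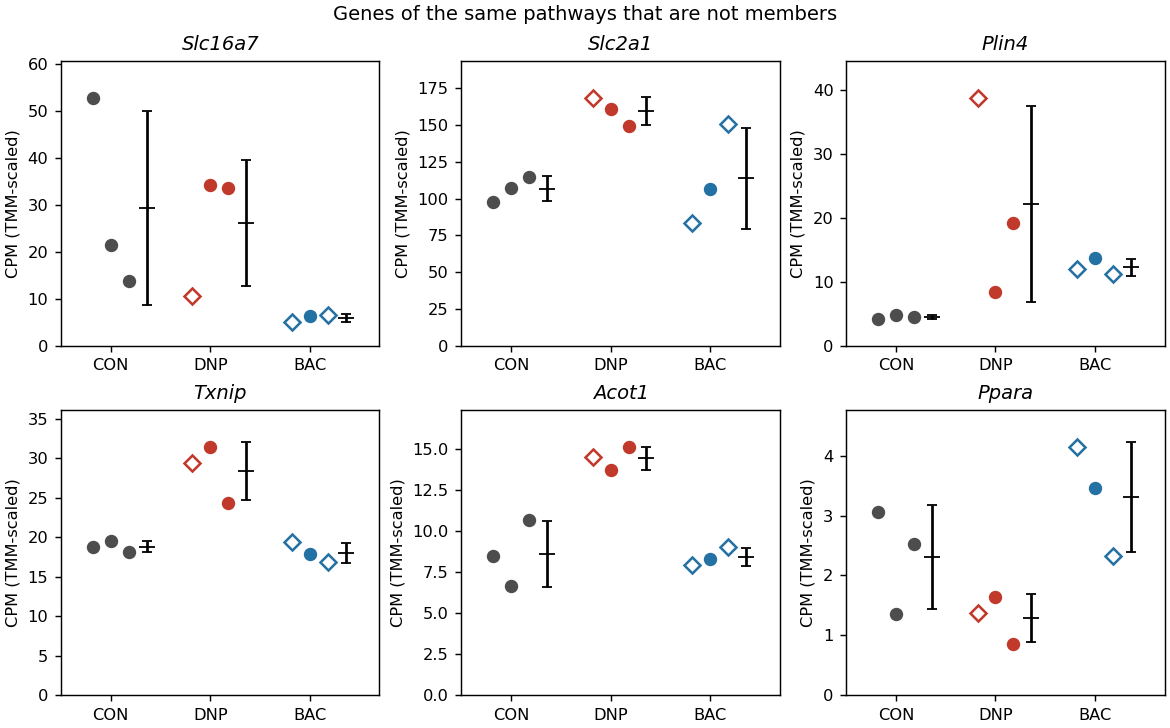
Level of 6 genes of the same pathways in each library (CPM, TMM-scaled, linear axis from 0), with mean and SD per group in black and the same symbols as in the plot of the members. Slc16a7 is lowest in the 3 BAC libraries (5.01 to 6.55 CPM), Txnip and Acot1 are highest in the 3 DNP libraries, Plin4 is above CON in all diabetic libraries, and Slc2a1 is spread from 83.2 to 151 CPM in BAC.

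Among 17 tested genes that control pyruvate dehydrogenase and glycolysis, DNP versus CON gave 3 higher and 0 lower at an unadjusted p under 0.05, and BAC versus DNP 0 higher and 2 lower. The shares over all tested genes are those given for the fasting list. Slc2a1, the glucose transporter of the blood-brain barrier, stood at 107 ± 8.52 CPM for CON, 160 ± 9.49 CPM for DNP and 114 ± 34.4 CPM for BAC (SD, n = 3 each), with a log2 fold change of 0.58 ± 0.21 in DNP versus CON (edgeR adjusted p = 0.383) and -0.49 ± 0.21 in BAC versus DNP (edgeR adjusted p = 0.998). Its BAC libraries spread from 83.2 to 151 CPM. All 8 endothelial and all 8 mural cell markers had fitted values below 0 in BAC versus DNP, with medians of -0.46 and -0.39, of which 3 and 1 had an unadjusted p under 0.05. The endothelial markers summed to 177 to 207 CPM in BAC, 200 to 297 CPM in DNP and 212 to 269 CPM in CON, and the part of these cells in the level of Slc2a1 was not tested. Without the marked libraries Slc2a1 was at 0.53 and -0.54 in the same comparisons. Mpc2, a subunit of the mitochondrial pyruvate carrier, and Ldhb, a lactate dehydrogenase subunit, were at 0.32 ± 0.11 and 0.40 ± 0.14 in the pooled comparison, both with an adjusted p of 0.352 in edgeR. Ldhb was highest in exactly the marked libraries. Without these, Mpc2 was at 0.22 and Ldhb at 0.25, and with the region covariates at 0.11 and 0.22. Of the 4 tested uncoupling carriers other than Ucp2, none had an unadjusted p under 0.05. The pooled log2 fold changes were 0.22 ± 0.16 for Slc25a30, 0.32 ± 0.39 for Ucp3, 0.06 ± 0.25 for Slc25a14 and -0.02 ± 0.13 for Slc25a27, named here to complete the list. Slc25a30 and Ucp3 were highest in exactly the marked libraries, and without these Slc25a30 was at 0.05, Ucp3 at -0.23 and Slc25a14 at 0.28.

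Likeness of pattern was measured as Pearson's r of log2 CPM over the 9 libraries, among genes with a mean of at least 5 CPM. The nearest genes to Slc16a1 were Fh1, the mitochondrial fumarate hydratase (r = 0.99), Snx33 (0.98) and Pnpla6 (0.98). Those nearest to Acat1 were Adpgk (0.99), Cd24a (0.98) and Agmo (0.98), and to Ucp2 Iglon5 (0.97), Spp1 (0.97) and Glo1 (0.97). Pdk4 was nearest to Vwc2l (0.99), Rpgrip1l (0.96) and Klhdc7a (0.95), and Cpt1a to Mad1l1, Gm14296 and Psmd5 (each 0.95). Oxct1 was close to Itga6 (0.94) and Ncbp3 (0.93), Angptl4 to Cebpzos (0.94), Ly6a (0.92) and Fkbpl (0.92), Acadm to Samhd1 (0.96), Lrrc1 (0.94) and Pigf (0.93), and Bdh1 to Gm6793, Rfxap and Caprin2 (each 0.89). None of these genes is a member. Libraries share region content and depth, and the largest of many such values is high by selection.

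Exons of Bdh1, Oxct1 and Ucp2 overlap a gene on the other strand by 533, 467 and 305 bases, and the libraries keep no strand. The overlapping genes Gm15743, BC037032 and Dnajb13 had at most 33, 31 and 17 counts in any library, so the reads of these 3 members are uncertain to a small degree. The other 6 members share no exonic base with another annotated gene.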

How the data were processed

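Poly(A) RNA from the whole brain of 9 mice, 3 each for CON, DNP and BAC, was read as paired ends without strand information. Per the labels and the study's methods, the authors checked reads with FastQC 0.11.9, filtered them with fastp, removed ribosomal reads with Bowtie2 2.3.4.1, aligned with HISAT2 2.1.0 to GRCm38 and quantified genes with StringTie 1.3.3b. The deposited tables hold raw counts and FPKM values, the latter without a TMM factor. How reads matching several genes were counted is not given in the sources used here.

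The analysis ran in R 4.3.3. edgeR 4.0.16 filtered the counts (filterByExpr, minimum count 10), scaled them by TMM and fitted all 9 libraries with its quasi-likelihood test, and p-values were adjusted after Benjamini and Hochberg over 18501 genes at 0.05. DESeq2 1.42.0, limma 3.58.1 on log2(FPKM + 1), other normalizations and filters, covariates and left-out libraries were alternatives. The scripts were tested on simulated data. Totals of 13107382 to 16008129 counts limit mainly Angptl4, at 11 to 58 counts, while mice differed beyond counting error. Members and lists were chosen with earlier results of these data known. Genes named besides the members were Ppara, Cpt2, Hadha, Slc16a7, Pdk1, Pdk2, Fkbp5, Tsc22d3, the 3 of each of 6 pathway lists with the smallest p in the pooled comparison, and the 3 genes nearest each member. Some genes that this rule names are not reported here. Marker lists comprised 13 lists. Promoters are from RefSeq and loci from GENCODE vM21.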

Additional observations from a re-analysis of the deposited data

How the results depend on the processing

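No member passed an adjusted p of 0.05 under any of the 23 alternatives, and the smallest adjusted p was 0.167 (Angptl4, pooled comparison, DESeq2). Of 819 values of members under an alternative, 740 kept their direction. Angptl4, Acat1, Ucp2 and Acadm kept theirs in all alternatives in DNP versus CON, with Angptl4 between 0.39 on log2(FPKM + 1), a scale that compresses low values, and 2.57 with region covariates. Leaving out single libraries gave 0 to 1 genes called in DNP versus CON, BAC versus CON and the pooled comparison, and DESeq2 gave 342, 100 and 364, with 7 in BAC versus DNP. The count of members above 0 then ran from 5 (without DNP replicate 1) to 9 in DNP versus CON and from 2 (without DNP replicate 3) to 7 in BAC versus DNP. It was 4 and 3 without the 3 libraries that hold brainstem and spinal cord markers, and 2 in BAC versus DNP with region covariates. Members at an unadjusted p under 0.05 numbered 0 (without CON replicate 1) to 2 (without CON replicate 2) in DNP versus CON, 0 to 2 in BAC versus CON and 0 to 3 in the pooled comparison when single libraries were left out. With region covariates they were 3, 2 and 3, where 2370, 2057 and 2375 of the 18501 tested genes stood at that level. In the main fit the shares over all tested genes were 11.2%, 7.76% and 11.8% in these comparisons. Without the marked libraries they were 0 in DNP versus CON and 0 pooled. On log2(FPKM + 0.1) there was 1 in BAC versus CON, and with upper quartile factors there were 2 pooled. The cause of these shifts was not tested.

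The following log2 fold changes took the opposite sign. Without the 3 marked libraries, DNP versus CON gave -0.16 for Pdk4, -0.00251 for Cpt1a, -0.034 for Bdh1, -0.16 for Oxct1, -0.082 for Slc16a1 and 0.20 for Slc16a7. BAC versus DNP, with BAC replicate 2 alone in its group and assumed to vary like the others, gave 0.26 for Angptl4, -0.51 for Oxct1, -0.072 for Acat1, -0.057 for Slc16a1, -0.089 for Ucp2 and -0.10 for Acadm. BAC versus CON gave -0.67 for Oxct1 and -0.14 for Slc16a1, and the pooled comparison -0.42 for Oxct1, -0.11 for Slc16a1, -0.00777 for Cpt2, -0.14 for Hadha, 0.17 for Pdk1, -0.11 for Tsc22d3 and -0.23 for Ucp3. With region covariates, Pdk4 was at -0.48 in DNP versus CON, at -0.44 in BAC versus CON and at -0.46 pooled. BAC versus DNP then gave -0.12 for Cpt1a, -0.38 for Oxct1, -0.13 for Acat1, -0.18 for Slc16a1 and -0.35 for Ucp2. BAC versus CON gave 0.18 for Bdh1 and -0.053 for Slc16a1, and the pooled comparison 0.24 for Bdh1, 0.30 for Pdk2, -0.87 for Fkbp5, -0.87 for Ucp3 and -0.33 for Slc25a14. Bdh1 in DNP versus CON was at -0.013 with DESeq2 and with median-of-ratios factors, -0.00445 without mitochondrial genes, -0.00871 without a filter and -0.00596 with only the groups compared. Pooled it was at 0.013 by library totals, 0.0096 with upper quartile factors, 0.022 on log2(FPKM + 1) and 0.026 on log2(FPKM + 0.1). Oxct1 in DNP versus CON was at -0.042 with limma-voom and -0.00114 on log2(FPKM + 0.1).

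When single libraries were left out, DNP versus CON ran from -0.095 to 0.10 for Bdh1, -0.18 to 0.38 for Oxct1, -0.15 to 0.36 for Pdk4, -0.070 to 0.38 for Slc16a1 and -0.51 to 0.57 for Slc16a7. BAC versus DNP ran from -0.10 to 0.25 for Cpt1a, -0.036 to 0.19 for Acat1, -0.088 to 0.37 for Slc16a1, -0.16 to 0.51 for Ucp2, -0.012 to 0.50 for Pdk4 and -0.27 to 0.34 for Oxct1. BAC versus CON ran from -0.061 to 0.42 for Oxct1 and -0.17 to 0.028 for Bdh1. The pooled comparison ran from -0.053 to 0.38 for Oxct1, -0.13 to 0.064 for Bdh1, -0.43 to 0.00326 for Pdk1, -0.49 to 0.077 for Pdk2, -0.14 to 0.55 for Fkbp5, -0.17 to 0.19 for Slc25a14 and -0.00863 to 0.58 for Ucp3.

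The labels and the paper describe no pairing of mice by replicate number. Deviations from group means correlated with r from -0.58 to 0.56 between libraries of the same number. Between libraries of different number r ran from -0.70 to 0.61. Region content differs between libraries, so these values cannot show or exclude a pairing. With the replicate number as a block, 0 genes were called in each comparison, Oxct1 in DNP versus CON was at -0.00621, Angptl4 at 1.34 ± 0.41, and 1 member had an unadjusted p under 0.05 in BAC versus CON.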

Other observations

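Glucocorticoids, which rise in fasting and in untreated diabetes, induce several genes of fuel choice, and 17 genes known to respond to them were tested. In DNP versus CON 9 were higher and 2 lower at an unadjusted p under 0.05, with a median log2 fold change of 0.70 against 0.01 over all genes (5.71% of tested genes were higher and 5.46% lower at that level). In BAC versus DNP 0 were higher and 3 lower (1.37% and 1.00% of tested genes), with a median of -0.33 against -0.01 over all genes. Lcn2, which encodes the secreted lipocalin-2, had 2 counts in each CON library, 107, 64 and 31 counts in DNP and 31, 38 and 15 in BAC. The genes with the smallest p did not all lie in the same direction. Klf9, a transcription factor that glucocorticoids induce, stood at 182 ± 1.88 CPM for CON, 123 ± 8.57 CPM for DNP and 125 ± 10.9 CPM for BAC (SD, n = 3 each), with no overlap between diabetic and CON libraries and a pooled log2 fold change of -0.56 ± 0.11 (adjusted p 0.295 in edgeR, 4.34e-05 in DESeq2). Dusp1, a phosphatase of MAP kinases that glucocorticoids also induce, was at -0.95 ± 0.18 (adjusted p 0.295 in edgeR, 0.00265 in DESeq2), and at -0.53 with the region marker levels as covariates. Fkbp5 and Tsc22d3, usual readouts of glucocorticoid action, were at 0.24 ± 0.43 and 0.50 ± 0.34 in the pooled comparison. Tsc22d3 was highest in the 3 libraries that hold brainstem and spinal cord markers (87.0 to 117 CPM, against 42.7 to 71.1 CPM elsewhere) and its value without them was -0.11.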
